A study of Mus musculus with 5 samples.

Results

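The 39 Hox cluster genes of the mouse are the subject here, in visceral adipose tissue of mice made obese by diet and then given resveratrol. They are the rows of the deposited count table whose symbol is Hox, a cluster letter from a to d and a number, and they make up 39 of 78334 gene identifiers. The Hoxa cluster has 11 members, Hoxb 10, Hoxc 9 and Hoxd 9. The 5 libraries of messenger RNA came from male mice of the inbred strain C57BL/6, and the labels put the start of the diet at 8 weeks of age. The resveratrol group had 2 libraries from mice fed for 8 weeks on a diet in which fat supplied 60% of the energy, then dosed by gastric tube with the plant polyphenol resveratrol, 2.25 mg/kg every day for 28 days from 16 weeks of age. The obesity group had 2 libraries from mice on the same diet given vehicle, and the control group had 1 library, with standard chow and vehicle. All tissue was taken after 12 weeks. The labels name no depot beyond visceral fat and leave it unsaid whether each library is another mouse, so p-values reflect only the spread between these libraries, which may be technical.

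Hox genes encode homeodomain transcription factors that give cells their position along the body axis. They sit in 4 clusters, and within a cluster the order of the genes follows the order in which they are used, from low paralogue numbers towards the head to high numbers towards the tail, the genital tract and the ends of the limbs. Polycomb proteins hold unused stretches of a cluster silent, Trithorax proteins hold used ones open, and retinoic acid switches the low-numbered genes on in the embryo. Adult connective tissue keeps much of this code, and fat depots of the mouse differ in it: Hoxc9 and Hoxc10 are known for higher transcript levels in subcutaneous than in intra-abdominal fat.

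The paralogue group 10 genes are shown first, because Hoxa10, Hoxc10 and Hoxd10 split the 5 libraries in different ways although they encode closely related proteins. Each line is the homeobox, the stretch of 180 bases for the DNA-binding homeodomain, 5′ to 3′ on the coding strand, from GENCODE M21 transcripts (build GRCm38). Capitals mark the 50 positions at which the 3 genes do not all share a base.
Hoxa10 (chromosome 6): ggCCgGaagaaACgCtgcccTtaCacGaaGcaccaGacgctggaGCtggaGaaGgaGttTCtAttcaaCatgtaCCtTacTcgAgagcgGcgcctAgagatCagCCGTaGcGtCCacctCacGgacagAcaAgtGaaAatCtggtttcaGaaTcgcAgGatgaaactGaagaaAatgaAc
Hoxc10 (chromosome 15): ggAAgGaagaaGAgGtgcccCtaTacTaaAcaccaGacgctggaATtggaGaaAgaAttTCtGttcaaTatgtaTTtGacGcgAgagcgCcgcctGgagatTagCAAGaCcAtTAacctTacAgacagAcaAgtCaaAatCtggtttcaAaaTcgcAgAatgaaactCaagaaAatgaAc
Hoxd10 (chromosome 2): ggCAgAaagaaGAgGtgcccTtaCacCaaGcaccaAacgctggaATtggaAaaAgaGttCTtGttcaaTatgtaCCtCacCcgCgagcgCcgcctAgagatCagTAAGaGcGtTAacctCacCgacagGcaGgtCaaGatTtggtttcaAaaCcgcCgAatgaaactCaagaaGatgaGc
Hoxa10 and Hoxc10 shared 80.6% of these bases, Hoxa10 and Hoxd10 78.9%, and Hoxc10 and Hoxd10 82.8%. The longest exact run shared by transcripts of members from different clusters was 52 bases, between Hoxa6 and Hoxb4, against sequenced reads of 150 bases. On that annotation 2 pairs of members shared exon bases on the same strand: Hoxc5 with Hoxc10 by 166 bases, 8.7% of the exon length of Hoxc10, and Hoxd3 with Hoxd4 by 388 bases. Counts of those pairs are therefore uncertain where reads fall in the shared stretch.

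The next 3 sequences are promoters of genes at opposite ends of the measured pattern. Hoxa7 was read in all 5 libraries, while Hoxa13 and Hoxd13, the tail-end genes of their clusters, stood above 1 CPM (counts per 1e6 counts of the library) in 1 library each. Each runs from 250 bases before to 50 after the start on the gene's own strand, from RefSeq on build GRCm38.p6, which is not the GRCm39 build of the counts. Capitals mark CG, the pair of bases that is methylated in DNA and crowded in CpG islands, where Polycomb proteins bind.
Hoxa7 (chr6:52218524-52218823, minus strand): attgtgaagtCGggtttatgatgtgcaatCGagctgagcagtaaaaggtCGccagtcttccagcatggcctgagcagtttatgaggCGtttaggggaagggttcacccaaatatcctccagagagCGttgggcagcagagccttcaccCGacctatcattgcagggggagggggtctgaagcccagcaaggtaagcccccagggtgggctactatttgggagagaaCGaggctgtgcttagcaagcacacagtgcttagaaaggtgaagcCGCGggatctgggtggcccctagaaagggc
Hoxa13 (chr6:52260831-52261130, minus strand): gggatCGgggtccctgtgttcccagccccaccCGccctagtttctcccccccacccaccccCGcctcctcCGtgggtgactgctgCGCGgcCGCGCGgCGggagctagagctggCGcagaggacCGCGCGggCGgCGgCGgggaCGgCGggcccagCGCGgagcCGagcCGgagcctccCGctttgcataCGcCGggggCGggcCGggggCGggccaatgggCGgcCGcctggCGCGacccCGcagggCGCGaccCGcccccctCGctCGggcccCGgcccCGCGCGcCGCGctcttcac
Hoxd13 (chr2:74667975-74668274, plus strand): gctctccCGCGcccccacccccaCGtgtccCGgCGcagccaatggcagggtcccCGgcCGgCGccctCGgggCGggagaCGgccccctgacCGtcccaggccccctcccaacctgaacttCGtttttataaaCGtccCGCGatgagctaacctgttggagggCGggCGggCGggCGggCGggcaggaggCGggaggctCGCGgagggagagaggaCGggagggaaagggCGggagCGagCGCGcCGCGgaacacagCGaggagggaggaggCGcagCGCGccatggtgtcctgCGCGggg
The Hoxa13 promoter held 45 CG, as many as 1.9% of all 32851 promoters in the table did. Hoxd13 held 37, a number that 5.6% of all promoters reached, and Hoxa7 held 9, which 45.8% reached. The Hoxa7 window lies at 1 RefSeq start, inside the gene as GENCODE M21 places it (chr6:52214491-52221854). Which start was used in these libraries was not tested. The 3 genes do not stand for all members. Hoxa5, also read in all 5 libraries, held 29 CG. Hoxd11 and Hoxd12 were read in resveratrol library 1 alone, and Hoxd11 had promoters with 4 and 25 CG and Hoxd12 one with 13. Over the 24 promoters found for 22 members the median was 14.5 CG, with a range of 4 to 45, and 20 of 24 lay above the median of 7 over all promoters, as did 48.6% of all promoters. CG reads the same on both strands, and its number in these windows says nothing about which protein was bound there.

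The tissue label was checked against markers, and the libraries did not hold the same transcripts. Values of pairs of libraries are given as library 1 and then library 2. The 12 adipocyte markers summed to 6555 and 35974 CPM with resveratrol, 35033 and 38466 CPM in the obesity libraries and 495 CPM in the control library. The 12 epididymis markers summed to 3424 and 0.350 CPM with resveratrol, where 3 and 10 of them had a count of 0, to 18.6 and 0.286 CPM in obesity and to 66877 CPM in the control library. The 8 smooth muscle markers summed to 46104 and 1031 CPM with resveratrol, 1311 and 1032 CPM in obesity and 2320 CPM in the control. The 7 markers of male accessory glands and vas deferens summed to 15290 and 0.0778, 0.678 and 0.0952, and 12.1 CPM. Single genes made up most of some sums. In resveratrol library 1 Akr1b7 of the accessory gland list was at 15288 CPM and Crisp1 of the epididymis list at 3397 CPM. Gpx5 of the epididymis was at 0.182 CPM there and at 28097 CPM in the control library. Synpo2 of smooth muscle was at 665 CPM in resveratrol library 2 and at 725 and 710 CPM in obesity. Resveratrol library 1 and the control library thus carried transcripts of the male genital tract beside low adipocyte markers. Their part in each Hox result was not tested, so results are also given without the library concerned. In bulk tissue, fewer cells of a type and less RNA per cell cannot be told apart.

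Of the 39 Hox genes, 35 reached 1 CPM in at least 1 library and 17 did so in all 5. Hoxb13 and Hoxc12 had a count of 0 in every library, Hoxc13 had 2 counts in obesity library 1 alone, and Hoxd1 peaked at 0.976 CPM in the control library. Summed over all members, Hox transcripts reached 983 CPM (95% exact interval 970 to 997) in resveratrol library 1, 370 CPM (362 to 377) in resveratrol library 2, 376 and 304 CPM in the obesity libraries and 1658 CPM (1643 to 1673) in the control library. The sum was therefore highest where adipocyte markers were lowest, and the 3 libraries rich in adipocyte markers lay close together. Intervals and floors cover counting error alone.

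**Figure D1:**
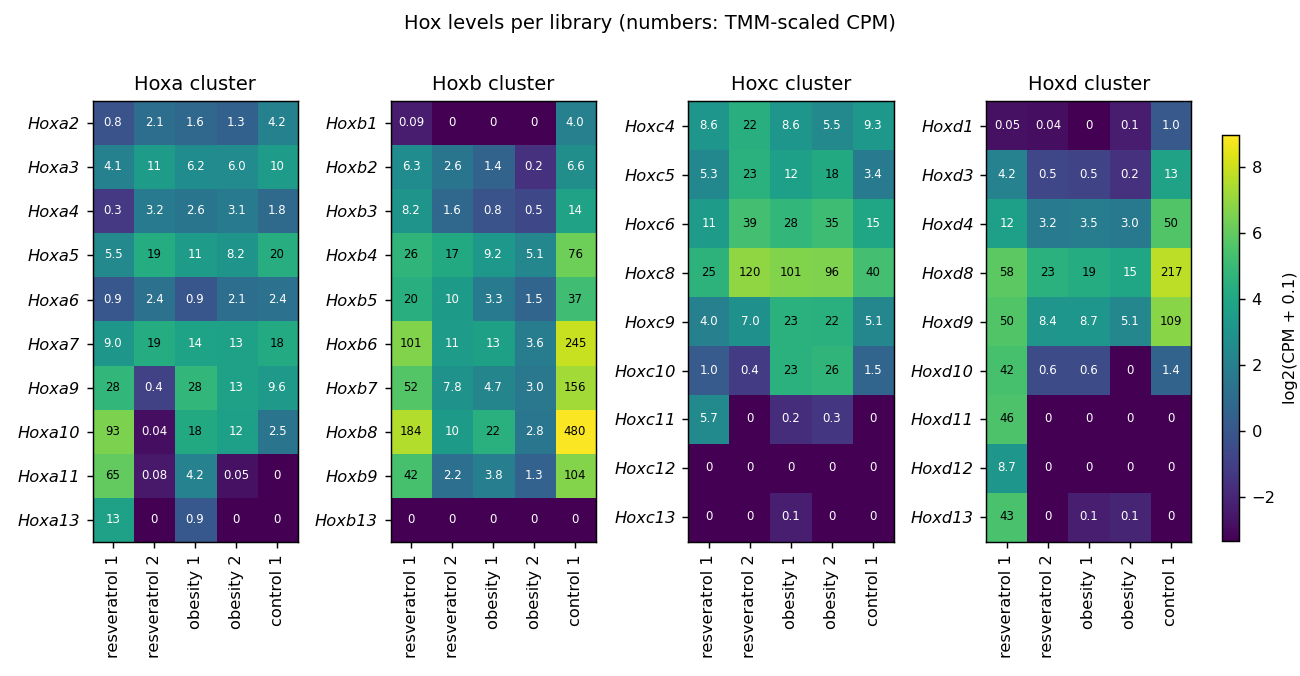
Level of the Hox genes shown (rows, by cluster and paralogue number) in each library (columns), in TMM-scaled CPM, printed in the cells and coloured by log2(CPM + 0.1). Resveratrol library 1 reaches 43.2 CPM at Hoxd13 and 12.99 CPM at Hoxa13, where the other libraries are under 1 CPM, and the control library has the highest level of 9 Hoxb genes.

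Which cluster supplied the Hox transcripts differed between the libraries. Hoxc genes made up 6.15% and 57.0% of all Hox counts in the resveratrol libraries, 52.3% and 66.6% in the obesity libraries and 4.46% in the control library. Hoxb genes made up 44.7% and 17.0%, 15.3% and 5.93%, and 67.7%. In both shares resveratrol library 2 lay nearer to the obesity libraries and resveratrol library 1 nearer to the control library. Of the 37 genes with a count in any library, 16 were highest in the control library (9 Hoxb, 5 Hoxd and 2 Hoxa genes), 9 in resveratrol library 2, 8 in resveratrol library 1, 3 in obesity library 1 and 1 in obesity library 2.

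**Figure D2:**
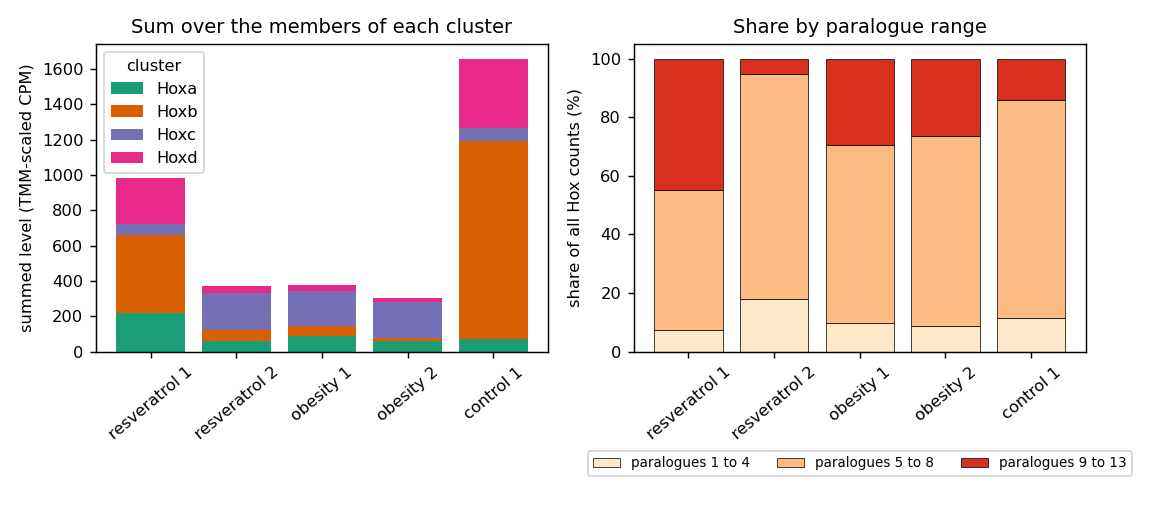
Summed level of each Hox cluster in each library, in TMM-scaled CPM (left), and percent of Hox counts from paralogues 1 to 4, 5 to 8 and 9 to 13 (right), as stacked bars that start at 0. Hoxc dominates resveratrol library 2 and both obesity libraries at 197 to 211 CPM, while Hoxb leads resveratrol library 1 at 439 CPM and the control library at 1122 CPM.

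How far each cluster was read towards its tail end also differed. The highest-numbered gene at 1 CPM or more was Hoxa13, Hoxb9, Hoxc11 and Hoxd13 in resveratrol library 1 and Hoxa7, Hoxb9, Hoxc9 and Hoxd9 in resveratrol library 2. It was Hoxa11, Hoxb9, Hoxc10 and Hoxd9 in obesity library 1, Hoxa10, Hoxb9, Hoxc10 and Hoxd9 in obesity library 2, and Hoxa10, Hoxb9, Hoxc10 and Hoxd10 in the control library. Genes of paralogue groups 9 to 13 made up 44.8% and 5.18% of Hox counts with resveratrol, 29.5% and 26.3% in obesity and 14.03% in control. Hoxb ended at Hoxb9 in all 5 libraries, since Hoxb13 is its one further member.

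The Hoxc cluster was the main Hox cluster of the libraries rich in adipocyte markers. Hoxc8, known in mice for its part in patterning the trunk, stood at 24.8 and 120 CPM with resveratrol, 101 and 96.1 CPM in the obesity libraries and 39.8 CPM in the control library. Per kilobase of exon it was the highest Hoxc gene in all 5 libraries, at 8.77 and 42.3, 35.7 and 33.9, and 14.04 CPM per kb. Hoxc6 was at 11.04 and 38.5, 27.9 and 35.2, and 14.8 CPM. In both genes the groups on the diet overlapped, and resveratrol library 1 lay below the control library. Hoxc5 stood at 5.32 and 23.1 CPM with resveratrol, 12.1 and 17.6 CPM in obesity and 3.38 CPM in the control. Hoxc4, at the head end, stood at 8.59 and 21.8, 8.61 and 5.47, and 9.35 CPM, so that it was highest in resveratrol library 2.

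Hoxc10 and Hoxc9 were the 2 members that stood lower in both resveratrol libraries than in both obesity libraries. Hoxc10 (ENSMUSG00000022484) was at 1.04 and 0.350 CPM under resveratrol, from 23 and 9 counts, at 23.3 and 26.2 CPM in the obesity libraries, from 447 and 550 counts, and at 1.4995 CPM in the control library. Hoxc9 (ENSMUSG00000036139) was at 4.00 and 7.04 CPM with resveratrol, 23.3 and 21.9 CPM in obesity and 5.09 CPM in the control. Both genes were thus high in the obesity libraries and low in the other 3. In resveratrol library 2 the sums of adipocyte and smooth muscle markers lay near those of obesity. The 5 endothelium markers summed to 1122 CPM, against 559 and 510 CPM in obesity. The 6 mesothelium markers summed to 221 CPM, against 199 and 20.6 CPM. Among them Msln was at 65.4 CPM, against a count of 0 and 4.90 CPM. Krt19, however, was at 14.4 CPM, against 115 and 3.43 CPM, and Krt8 at 6.61 CPM, against 58.5 and 2.05 CPM. The part of these cell types in the Hoxc9 and Hoxc10 levels was not tested. The mean of Hoxc10 was 0.697 ± 0.491 CPM with resveratrol and 24.8 ± 2.02 CPM in obesity (SD, n = 2 each), a log2 difference of -5.15 ± 0.712. (SE) Its unadjusted p was 0.00168 and its adjusted p 0.899 in edgeR's quasi-likelihood test with Benjamini-Hochberg adjustment, so it was not called. For Hoxc9 the log2 difference was -2.03 with an SE of 0.427.

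Hoxc10 was also set against Hoxc8 of the same cluster, on a scale that needs no library size. Hoxc10 gave 4.04% (95% exact interval 2.57 to 5.99) of the counts of Hoxc10 and Hoxc8 together in resveratrol library 1 and 0.291% (0.133 to 0.552) in resveratrol library 2. The shares were 18.7% (17.2 to 20.4) and 21.4% (19.8 to 23.0) in the obesity libraries and 3.63% (2.64 to 4.87) in the control library. Resveratrol library 2 held more Hoxc8 than either obesity library and fewer Hoxc10 counts. Set against obesity libraries 1 and 2 one at a time, its Hoxc10 level was 66.6 times lower (95% exact interval 34.8 to 147) and 74.8 times lower (39.1 to 164). Hoxc9 as a share of Hoxc9 and Hoxc8 was 13.9% and 5.55% with resveratrol, 18.7% and 18.6% in obesity and 11.4% in control.

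Hoxc11, one step further, was at 5.68 CPM in resveratrol library 1, 0.209 and 0.286 CPM in the obesity libraries, and had a count of 0 in resveratrol library 2 and in control. Its level in resveratrol library 1 was at least 48.7-fold higher than in resveratrol library 2, taking 3 counts as the floor of a library at 0. Hotair, the non-coding RNA transcribed opposite the Hoxc11 end of the cluster, was at 1.68 CPM in resveratrol library 1 and had at most 2 counts in any other library.

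The Hoxa cluster was split between its low-numbered and its high-numbered genes. Hoxa5, known in mice for roles in the lung, stood at 5.50 and 19.4 CPM with resveratrol, 10.7 and 8.24 CPM in obesity and 20.3 CPM in the control. Hoxa7 was at 8.99 and 19.4, 13.9 and 12.9, and 18.3 CPM. Hoxa3 was at 4.13 and 10.9, 6.21 and 5.95, and 10.5 CPM. These 3 genes were highest in resveratrol library 2 and the control library, and the 2 resveratrol libraries bracketed the obesity pair in each. The remaining low-numbered genes were sparse. Hoxa2 was at 0.772 and 2.06, 1.62 and 1.29, and 4.18 CPM, and Hoxa6 at 0.909 and 2.41, 0.887 and 2.09, and 2.37 CPM. Hoxa4 was at 0.318 and 3.23, 2.61 and 3.14, and 1.78 CPM, a 10.2 times lower level in resveratrol library 1 than in its partner (95% exact interval 4.71 to 26.03).

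From Hoxa9 onwards the resveratrol libraries parted in the opposite sense. Hoxa9, a gene of the trunk and of blood progenitors, was at 27.8 and 0.428 CPM with resveratrol, 28.3 and 13.1 CPM in obesity and 9.62 CPM in the control. Hoxa10, needed in mice for the uterus and the descent of the testis, was at 93.3 CPM in resveratrol library 1 and at 1 count, 0.0389 CPM, in its partner, with 17.5 and 12.0 CPM in obesity and 2.51 CPM in the control. Both obesity libraries thus lay between the resveratrol libraries for Hoxa10, which differed by 2399 times (95% exact interval 430.1 to 94794). Hoxa11, which shapes the forearm and the genital tract, was at 64.9 and 0.0778 CPM with resveratrol, 4.23 and 0.0476 CPM in obesity and at a count of 0 in control. Hoxa13, the gene of the hand, foot and genital tubercle, was at 12.99 CPM in resveratrol library 1 and 0.939 CPM in obesity library 1, and at a count of 0 in the other 3. Resveratrol library 1 exceeded its partner at least 111-fold for Hoxa13.

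Within the Hoxa cluster the boundary can be read as shares. Hoxa10 as a share of Hoxa10 and Hoxa7 was 91.2% (95% exact interval 89.96 to 92.3) and 0.20% (0.00506 to 1.11) in the resveratrol libraries, 55.7% (51.7 to 59.7) and 48.1% (43.7 to 52.5) in the obesity libraries and 12.1% (9.56 to 14.9) in the control library. Hoxa9 as a share of Hoxa9 and Hoxa7 was 75.6% and 2.16%, 66.996% and 50.4%, and 34.5%. Resveratrol library 2 thus lay above both obesity libraries for each of Hoxa2 to Hoxa7, beyond counting error against both for Hoxa3, Hoxa5 and Hoxa7 and within it against at least 1 of them for Hoxa2, Hoxa4 and Hoxa6, and far under both for Hoxa9 and Hoxa10. Without resveratrol library 1, edgeR's fit put both Hoxa10 and Hoxc10 lower in resveratrol against obesity. For Hoxa10 that is a log2 difference of -8.37 ± 0.736 (SE), fitted with 1 resveratrol library at 1 count. Without resveratrol library 2 the log2 difference of Hoxa10 was 2.67, so its direction turned with the library left out.

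**Figure D3:**
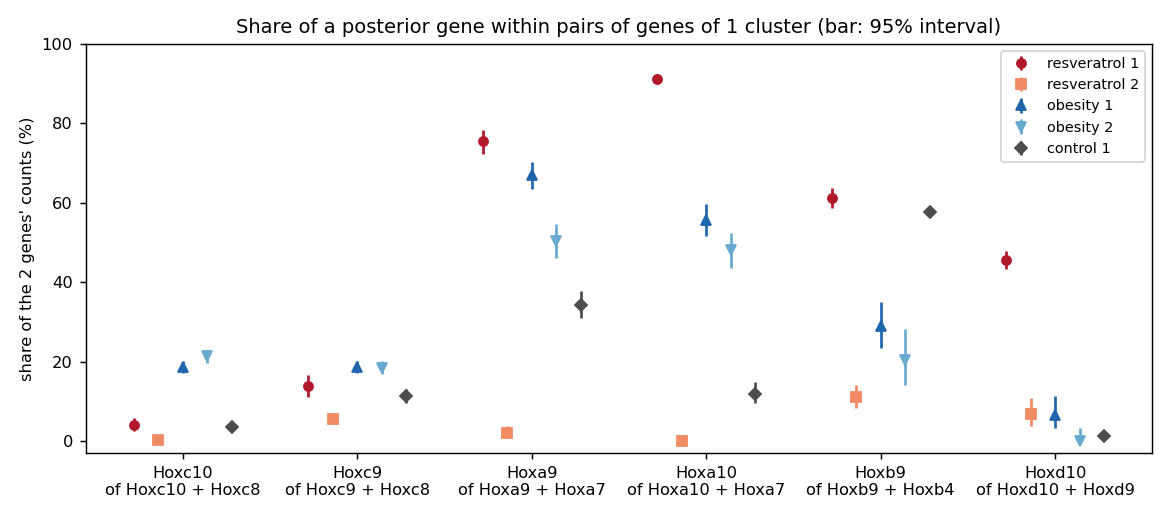
Share of a Hox gene in the summed counts of itself and a lower-numbered partner of its cluster, in percent, with 95% exact intervals, for each library. The obesity libraries sit at 18.7% and 21.4% for Hoxc10 against Hoxc8, above the other 3, and the resveratrol libraries sit at opposite ends for Hoxa9 and Hoxa10 against Hoxa7.

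The Hoxb genes were highest in the control library. Hoxb8 stood at 184 and 10.2 CPM with resveratrol, 21.9 and 2.76 CPM in obesity and 480 CPM in the control. Hoxb6 was at 101 and 10.9, 12.7 and 3.57, and 245 CPM. Hoxb7 was at 51.7 and 7.82, 4.75 and 2.95, and 156 CPM. The control library led, resveratrol library 1 was next, and the libraries rich in adipocyte markers were lowest for each of the 3. Hoxb9, at the tail end of what was read, was at 41.5 and 2.18 CPM with resveratrol, 3.76 and 1.33 CPM in obesity and 104 CPM in the control. Hoxb4, known for expanding blood stem cells, was at 26.3 and 17.4, 9.18 and 5.14, and 75.8 CPM, and Hoxb5 was at 20.4 and 10.1, 3.34 and 1.52, and 37.0 CPM. In these 2 genes both resveratrol libraries lay above both obesity libraries and below the control library.

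Among the head-end Hoxb genes, Hoxb3 was at 8.18 and 1.59 CPM with resveratrol, 0.783 and 0.524 CPM in obesity and 13.5 CPM in the control, and Hoxb2 was at 6.27 and 2.61, 1.41 and 0.238, and 6.63 CPM. Hoxb1, which patterns the hindbrain, was at 4.01 CPM in the control library, had 2 counts in resveratrol library 1 and had a count of 0 in the other 3. Its level was at least 25.6-fold lower in obesity library 1, and at least 28.1-fold lower in obesity library 2, than in the control library. Hoxb2, Hoxb3, Hoxb4, Hoxb5 and Hoxb7 were higher in both resveratrol libraries than in both obesity libraries, whereas Hoxb6, Hoxb8 and Hoxb9 were not, since obesity library 1 exceeded resveratrol library 2. Hoxb9 as a share of Hoxb9 and Hoxb4 was 61.3% and 11.1% with resveratrol, 29.0% and 20.6% in obesity and 57.8% in control.

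The Hoxd cluster joined both patterns. Hoxd8 was at 57.9 and 22.8 CPM with resveratrol, 19.3 and 14.7 CPM in obesity and 217 CPM in the control, and Hoxd9 was at 49.97 and 8.40, 8.71 and 5.09, and 109 CPM. Hoxd4 was at 12.0 and 3.19, 3.55 and 3.05, and 49.9 CPM, and Hoxd3 at 4.22 and 0.506, 0.470 and 0.238, and 13.5 CPM. These 4 genes were highest in the control library, as the Hoxb genes were. Hoxd10 was at 42.0 and 0.622 CPM with resveratrol, 0.626 CPM and a count of 0 in obesity and 1.39 CPM in control. Hoxd11, which acts with Hoxa11 in the forearm and kidney, was at 45.6 CPM in resveratrol library 1, with a count of 0 in each of the other 4. Hoxd12 was at 8.72 CPM there and at a count of 0 in the other 4, and Hoxd13, the gene of the digits, was at 43.2 CPM there and had at most 3 counts elsewhere. Resveratrol library 1 exceeded its partner at least 391-fold for Hoxd11 and at least 370-fold for Hoxd13.

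**Figure D4:**
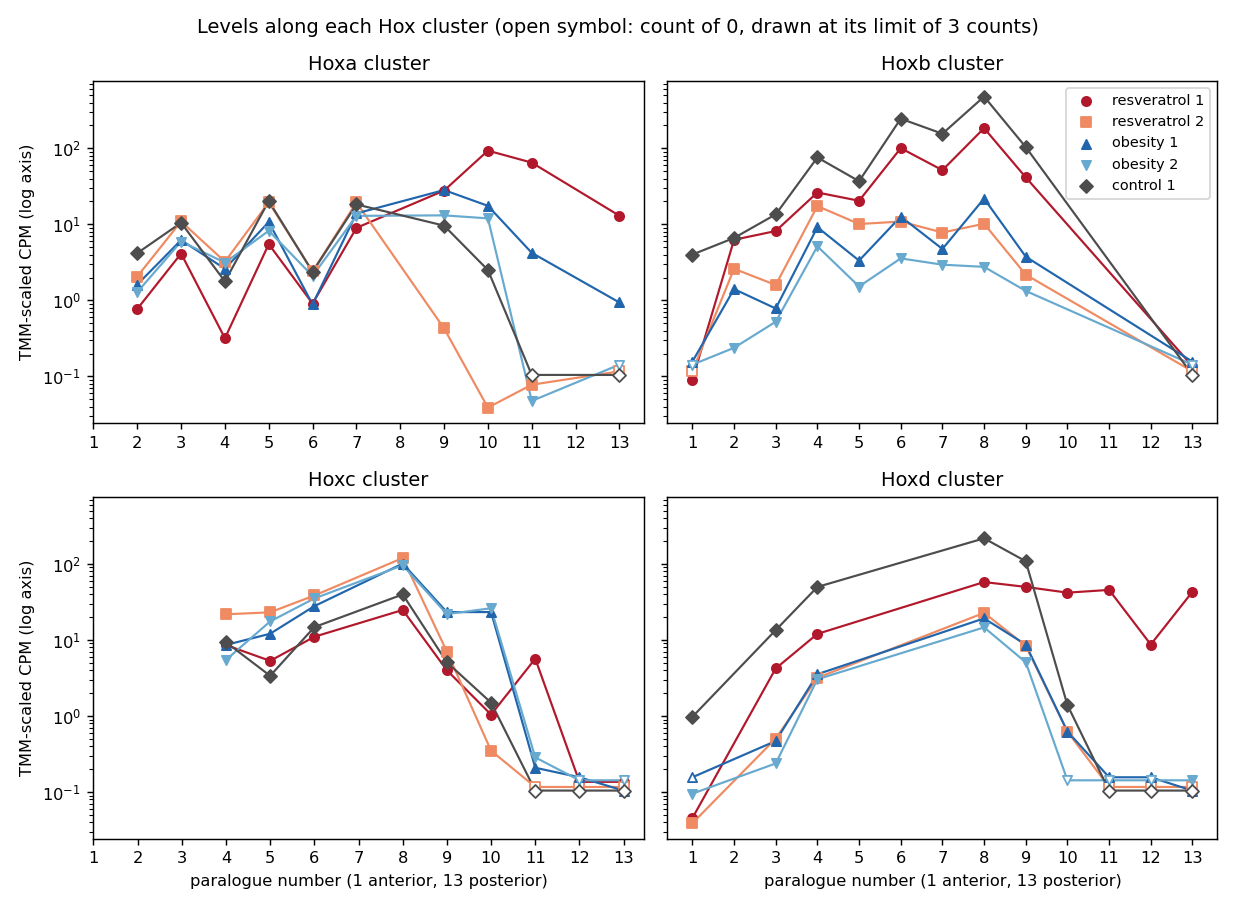
Level of the members along each cluster, by paralogue number, in TMM-scaled CPM on a log axis, with 1 line per library; open symbols mark a count of 0, drawn at the limit that 3 counts give. Resveratrol library 1 still reads 5.68 CPM or more at Hoxa13, Hoxc11 and Hoxd13, while resveratrol library 2 is under 1 CPM from Hoxa9 onwards in the Hoxa cluster.

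The spread within the groups was uneven. Compared within a pair were members that reached 1 CPM in any of the 5 libraries and had more than 3 counts in a library of the pair. Of 34 such members of the resveratrol pair, 16 were at least 4 times higher in library 1 than in library 2 and 4 were at least 4 times lower, Hoxa4, Hoxc5 and Hoxc8 among them. The 16 were Hoxa9 to Hoxa13, Hoxb3, Hoxb6 to Hoxb9, Hoxc11, Hoxd3 and Hoxd9 to Hoxd13. In the obesity pair 5 of 31 members, Hoxa11, Hoxa13, Hoxb2, Hoxb8 and Hoxd10, were at least 4 times higher in library 1, and 0 were lower by that much. How many of all genes differed as much within a pair was not counted, so these counts do not set Hox genes apart. Hoxa11, at 81 counts in obesity library 1 and 1 count in obesity library 2, differed by 88.8 times (95% exact interval 15.5 to 3549). In obesity library 1 the sums of epididymis, smooth muscle and urothelium markers were all above obesity library 2, at 18.6 against 0.286, 1311 against 1032 and 436 against 10.1 CPM. Within the smooth muscle sums Synpo2 was at 725 against 710 CPM and Acta2 at 323 against 268 CPM. Myh11 was at 137 against 22.6 CPM and Cnn1 at 33.6 against 0.238 CPM. The part of these markers' tissues in the Hox differences was not tested.

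Resveratrol against obesity asked which Hox genes differed with the treatment on the same diet. In edgeR's quasi-likelihood test with Benjamini-Hochberg adjustment over 24779 genes, 0 of the 36 Hox genes tested passed 0.05, where 0.0% of all genes did, and the smallest adjusted p was 0.899 among Hox genes and among all genes. At an unadjusted p under 0.05 there were 6 of 36 members, against 2.34% of all genes: Hoxb3, Hoxb4, Hoxb5 and Hoxb7 stood higher, where 1.92% of all genes did, and Hoxc9 and Hoxc10 lower, where 0.428% did. Hoxb5 averaged 15.3 ± 7.30 CPM with resveratrol and 2.43 ± 1.28 CPM in obesity (SD, n = 2 each), a log2 difference of 2.65 ± 0.627. (SE) Hoxb4 averaged 21.8 ± 6.24 and 7.16 ± 2.86 CPM, a log2 difference of 1.61 ± 0.430. (SE) For Hoxb3 the log2 difference was 2.89 (SE 0.988) and for Hoxb7 it was 2.95 (SE 1.02). Hoxd8, Hoxd10, Hoxb2 and Hoxd3 followed, with log2 differences of 1.25 (SE 0.534), 6.08 (SE 2.70), 2.43 (SE 1.08) and 2.72 (SE 1.23) and unadjusted p-values of 0.0772 to 0.0889 in the same quasi-likelihood fit.

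Counted over all tested members, 26 of 36 had a positive log2 difference, against 52.8% of all genes, and the median was 1.63 against 0.05 for all genes. With 2 members whose obesity libraries were both at 0 set at their bound and 1 left out, the median was 1.61. Both resveratrol libraries lay above both obesity libraries for 7 of 36 members, against 16.9% of all genes, and below both for 2 of 36, against 16.7%. DESeq2 called 4 members, Hoxb5 and Hoxd11 higher and Hoxc9 and Hoxc10 lower, against 0.839% of all genes, and limma-voom called 0. Leaving out either resveratrol library raised the calls of edgeR's test among Hox genes and among all genes, as the last section gives. Hoxc10 was lower both times, with log2 differences of -4.55 without library 2 and -6.11 without library 1, each fitted with 1 resveratrol library. Hoxc10 and Hoxa10 were also lower without the control library and resveratrol library 1 together, the libraries that carried most genital tract transcripts.

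**Figure D5:**
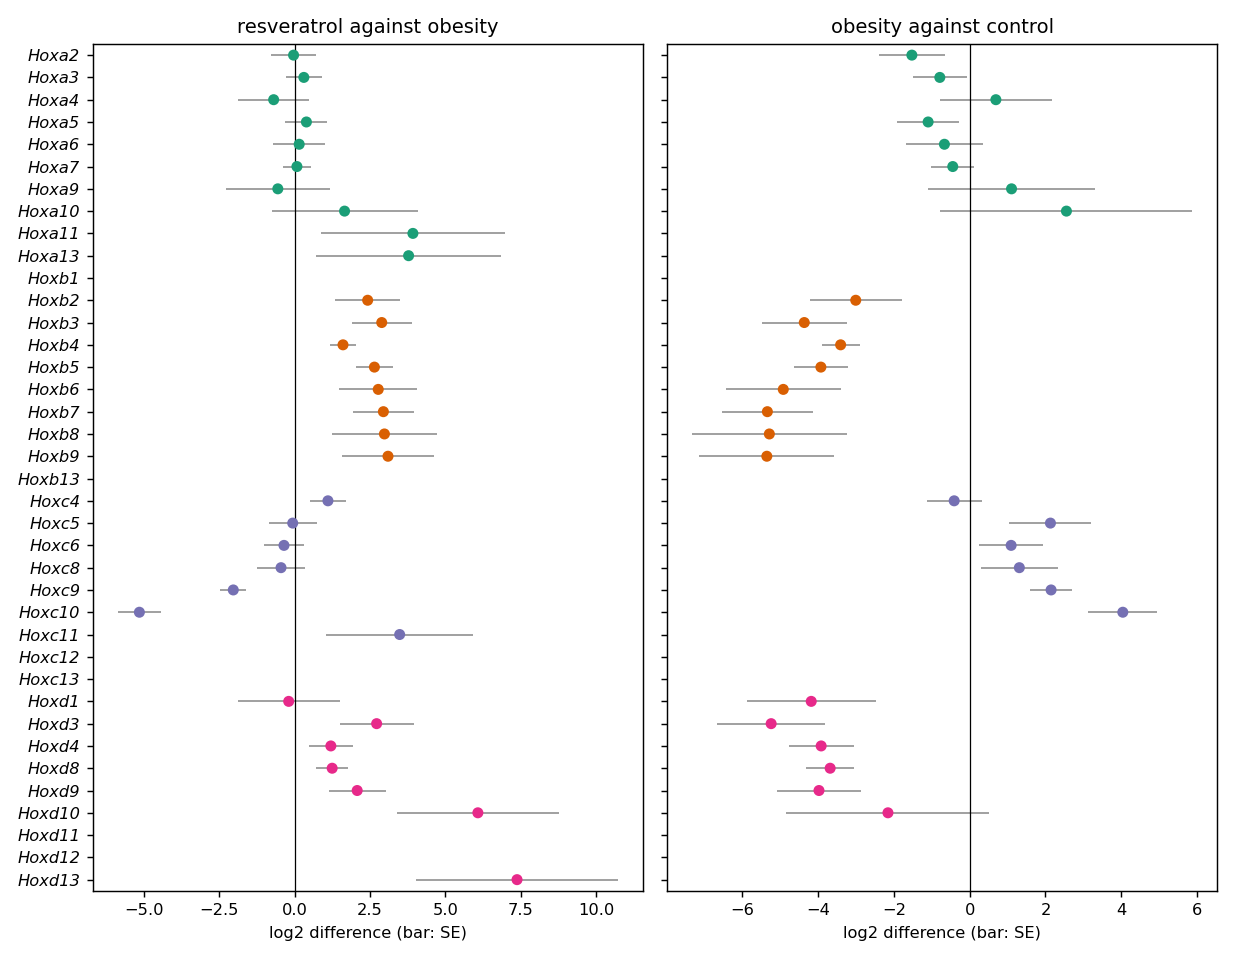
Log2 difference of Hox genes with its SE (bar) in resveratrol against obesity (left) and obesity against control (right), from the edgeR fit of all 5 libraries; genes not tested or with a group at a count of 0 have no point. In resveratrol against obesity Hoxc10 lies at -5.15 and Hoxc9 at -2.03, while Hoxb3, Hoxb4, Hoxb5 and Hoxb7 lie between 1.61 and 2.95, and Hoxc9 and Hoxc10 lie at 2.15 and 4.04 in obesity against control.

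Obesity against control compared the diet with chow, with 1 control library that held 495 CPM of adipocyte and 66877 CPM of epididymis markers. Most Hoxb and Hoxd genes stood lower in obesity than in the control, and most Hoxc genes higher. In edgeR's quasi-likelihood test 0 of 36 members passed an adjusted p of 0.05, where 0.0% of all genes did, and the smallest adjusted p was 0.160 among Hox genes and 0.0999 among all genes. At an unadjusted p under 0.05 there were 13 of 36 members against 24.3% of all genes. The 2 higher ones, where 12.6% of all genes were, were Hoxc9 and Hoxc10, and the 11 lower ones, where 11.7% of all genes were, were Hoxb1, Hoxb3 to Hoxb7, Hoxb9, Hoxd3, Hoxd4, Hoxd8 and Hoxd9. Hoxb4 averaged 7.16 ± 2.86 CPM in obesity (SD, n = 2) and was at 75.8 CPM in control, which is -3.40 ± 0.501. (SE) on the log2 scale Hoxd8 averaged 17.0 ± 3.24 CPM in obesity and was at 217 CPM in control, which is -3.68 ± 0.632. (SE) on the log2 scale Hoxc10 and Hoxc9 stood higher, by log2 differences of 4.04 (SE 0.906) and 2.15 (SE 0.561). The other log2 differences were -3.92 for Hoxb5 (SE 0.713), -3.92 for Hoxd4 (SE 0.854), -5.34 for Hoxb7 (SE 1.197), -4.36 for Hoxb3 (SE 1.12) and -5.24 for Hoxd3 (SE 1.43).

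Over the tested members, 13 of 36 had a positive log2 difference, against 46.9% of all genes, and the median was -0.73 against -0.10 for all genes. With 4 members of a group at 0 set at their bound and 3 left out, the median was -1.10. Both obesity libraries lay above the control library for 12 of 36 members, against 40.8% of all genes, and below it for 21 of 36, against 48.6%. DESeq2 called 15 members, against 17.9% of all genes, and limma-voom 0. Leaving out either resveratrol library raised the calls of edgeR's test among Hox genes and among all genes, as the last section gives. These libraries enter this comparison through the shared estimate of the spread and the filter on low counts. Genes tested numbered 24352, 32 of them Hox genes, without library 1 and 24386, 36 of them Hox genes, without library 2. With either obesity library left out, the calls did not differ from those of the fit of all 5 libraries.

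Resveratrol against control shares its control library with the comparison before and its resveratrol libraries with the first. Hoxd8 averaged 40.3 ± 24.8 CPM with resveratrol (SD, n = 2) and was at 217 CPM in control, which is -2.43 ± 0.618. (SE) on the log2 scale Hoxb4 averaged 21.8 ± 6.24 CPM and was at 75.8 CPM in control, a difference of -1.80 ± 0.492 (SE), and Hoxd4 differed by -2.71 (SE 0.831). In edgeR's quasi-likelihood test 0 of 36 members passed an adjusted p of 0.05, against 0.0% of all genes, and the smallest adjusted p was 0.238 among Hox genes and 0.134 among all genes. At an unadjusted p under 0.05 there were 4 of 36, against 18.5% of all genes: Hoxb1, Hoxb4, Hoxd4 and Hoxd8, all lower, where 8.05% of all genes were. Hoxb7 differed by -2.39 (SE 1.11), Hoxd3 by -2.51 (SE 1.31), Hoxd1 by -4.37 (SE 1.70) and Hoxc5 by 2.07 (SE 1.08). Hoxd13 and Hoxc11, also among the 10 smallest p-values, had a count of 0 in control and in resveratrol library 2, and resveratrol library 1 exceeded the control library at least 54.3-fold for Hoxc11.

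Of 36 members, 15 had a positive log2 difference, against 51.4% of all genes, with a median of -0.49 against 0.05 for all genes, and the median was -0.49 too with 6 members at their bound. Both resveratrol libraries lay above the control library for 2 of 36 members, Hoxa11 and Hoxc5, against 37.7% of all genes, and below it for 17 of 36, against 41.0%. DESeq2 called 6 members, against 12.2% of all genes, and limma-voom 0. Leaving out either resveratrol library raised the calls of edgeR's test among Hox genes and among all genes, as the last section gives. Members called higher were Hoxc5, Hoxc6 and Hoxc8 without library 1. Without library 2 they were Hoxa10, Hoxc11, Hoxd11, Hoxd12 and Hoxd13. These are different genes in the upward direction, each from a fit with 1 resveratrol library. In the downward direction Hoxb1, Hoxb7, Hoxd4 and Hoxd8 were shared by both fits, while the remaining lower members were in 1 fit only.

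The cofactors that bind DNA together with Hox proteins, Meis, Pbx and Pknox of the TALE family, were measured beside them. Their 9 genes summed to 569 and 211 CPM with resveratrol, 213 and 188 CPM in obesity and 198 CPM in the control. In resveratrol against obesity 7 were higher and 2 lower, with a median log2 difference of 0.70, and 0 passed the adjusted p of edgeR's test. Meis2 was at 154 and 10.8 CPM with resveratrol, 9.03 and 7.28 CPM in obesity and 4.18 CPM in the control, and Meis1 was at 134 and 12.3, 11.1 and 6.90, and 11.2 CPM. Both were over 100 CPM in resveratrol library 1, the library with Hoxa13 and Hoxd13, and under 13 CPM in the other 4. Meis3 was at 17.6 and 20.7, 23.7 and 19.6, and 3.42 CPM, and so was low in the control library alone.

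The 18 Polycomb and Trithorax genes moved less, at sums of 753 and 670 CPM with resveratrol, 633 and 630 CPM in obesity and 660 CPM in the control. In resveratrol against obesity 11 were higher and 7 lower, with a median log2 difference of 0.07. Cbx7, a reader of the Polycomb mark, was at 90.9 and 49.3 CPM with resveratrol, 35.3 and 28.8 CPM in obesity and 69.2 CPM in the control. Pcgf2, a subunit of the complex with Cbx7, was at 31.4 and 12.9, 11.3 and 7.43, and 51.6 CPM. Both lay above the obesity libraries in both resveratrol libraries, as 16.9% of all genes did, and in the control library, as 48.6% did. Ezh2, which writes the mark, was at 6.36 and 10.3 CPM with resveratrol, 15.4 and 14.8 CPM in obesity and 6.35 CPM in the control.

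Non-coding genes of the clusters numbered 16, of which 11 were tested. In resveratrol against obesity 10 were higher and 1 lower, with a median log2 difference of 1.48, and in obesity against control 2 were higher and 9 lower, with a median of -2.48. Hoxb3os, antisense to Hoxb3, was at 3.32 and 5.64 CPM with resveratrol, 1.04 and 0.524 CPM in obesity and 10.9 CPM in the control. Hoxb5os was at 23.9 and 4.08, 4.38 and 2.29, and 40.5 CPM. Hoxa11os, antisense to Hoxa11, was at 46.0 CPM in resveratrol library 1, 2.14 CPM in obesity library 1 and 0.628 CPM in control, and at a count of 0 in the other 2. Haglr, antisense at the head end of Hoxd, was at 3.36 and 2.22, 2.40 and 1.81, and 21.9 CPM. In Hoxb5os, Hoxa11os and Haglr the library with the most reads was also that of the neighbouring coding gene, and since the strand setting of the counting is not given in the sources used here, reads of a gene and its antisense partner cannot be told apart. Mir10b, Mir196a-2 and Mir196b, microRNA genes inside the clusters, had a count of 0 in all 5 libraries, which were made from poly-A RNA. Mir196a-1, another, was at 2.04 CPM in resveratrol library 1 and 2.34 CPM in control. Mir10a had at most 25 counts and Mir615 at most 6 in any library. Of 11 homeobox relatives and neighbours of the clusters 3 were tested, and Evx1, next to Hoxa13, had a count of 0 in 4 libraries and 1.74 CPM in control.

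Retinoic acid genes, 17 of 18 tested, included 12 higher and 5 lower members in resveratrol against obesity, with a median log2 difference of 0.33. Aldh1a1, an enzyme that makes retinoic acid, was at 181 and 189 CPM with resveratrol, 101 and 131 CPM in obesity and 863 CPM in the control. Aldh1a3, another, was at 20.5 and 25.6, 9.29 and 3.67, and 2.72 CPM. Both stood higher in both resveratrol libraries than in both obesity libraries, as 16.9% of all genes did. In the control library Aldh1a1 was at its highest and Aldh1a3 at its lowest. Of the 17 genes, 0 passed the adjusted p of edgeR's test, and a link with the Hox levels was not tested.

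Of the 15 transcription factors that mark fat depots, 13 were tested, with 7 higher and 6 lower in resveratrol against obesity. Tbx15 and En1 are known in mice for higher levels in subcutaneous than in intra-abdominal fat. Tbx15 was at 0.363 and 0.467 CPM with resveratrol, 6.47 and 5.47 CPM in obesity and 0.139 CPM in the control, a log2 difference of -3.83 (SE 0.608) between resveratrol and obesity that was not called. En1 was at a count of 0 and 0.467 CPM with resveratrol, 4.49 and 3.43 CPM in obesity and a count of 0 in control. Tbx15, En1, Hoxc9 and Hoxc10 were thus each higher in the 2 obesity libraries than in any of the other 3. Of all genes, 16.7% were lower in both resveratrol libraries than in both obesity libraries. Both obesity libraries lay above the control library for 40.8% of all genes. The share of all genes with both features was not counted. Shox2, on the same list, was not: it was at 0.0454 and 0.506 CPM with resveratrol, 0.522 and 0.381 CPM in obesity and 0.767 CPM in the control. Emx2, a gene of the urogenital tract, was at 98.4 and 0.972 CPM with resveratrol, 0.365 and 0.619 CPM in obesity and 86.2 CPM in the control, high in the 2 libraries with genital tract markers.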

How the data were processed

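The 5 libraries measured RNA of visceral fat, and per the labels' protocols poly-A libraries were made with a stranded kit and read as pairs of 150 bases. The authors deposited raw whole-number counts per gene, made with featureCounts on build GRCm39 after FastQC, per the submitters' processing notes. Which aligner, annotation, strand setting and versions were used is not given in the sources used here. Of 78334 identifiers 65.7% were given a symbol. Total counts ranged from 19540961 to 27026597.

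The main test was that of edgeR 4.0.16 in R 4.3.3. FilterByExpr by group (minimum count 10, minimum total 15) left 24779 genes, 36 of 39 Hox genes among them. Libraries were scaled by TMM, all 5 entered 1 robust quasi-likelihood fit, and its F tests were adjusted by Benjamini-Hochberg at a threshold of 0.05. For the single control library the spread of the other groups was assumed. The common biological coefficient of variation was 62.2%. CPM are TMM-scaled, and a count of 0 has a floor of 3 counts per library (0.105 to 0.157 CPM). Intervals are exact at 95%: Poisson for levels, binomial for shares and conditional binomial for ratios. Exon lengths and homeoboxes came from GENCODE M21 on GRCm38, and no coordinate was carried to GRCm39. The fits were tested on simulated data.

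The members and lists were chosen with earlier results of these data known. Members at 1 CPM or more in a library were described in full, the 10 smallest p-values per comparison were given log2 differences, and up to 4 genes per further list were named by smallest p. Ezh2, Aldh1a3, Hoxa11os, Hotair, En1, Shox2, Msln, other single marker genes and the microRNA genes lie outside that rule and were picked with their values in view. The alternatives were other size factors and filters, DESeq2 1.42.0, limma-voom (limma 3.58.1), a non-robust fit, a fit to the compared groups alone, a replicate block, and fits without 1 library. The fit without both the control library and resveratrol library 1 was chosen after seeing the data. Over the genes kept by the filter, the deviation of library 1 from its group mean correlated at 0.30 between the resveratrol and obesity groups. Nothing in the labels pairs same-numbered libraries. Python 3.11.15 with matplotlib 3.10.9 drew the figures. Some genes are not reported here.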

Additional observations from a re-analysis of the deposited data

How the results depend on the processing

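The counts of called genes depended on the setting more than the Hox levels did. For obesity against control, called genes numbered 0 over all genes and 0 Hox genes in the edgeR fit of 5 libraries, 2575 and 8 with no filter on low counts, 4431 and 15 with DESeq2, and 9269 and 17 with only the groups compared. Leaving out 1 library gave 0 to 9227 genes and 0 to 18 Hox genes. For resveratrol against obesity, 0 and 0 became 25 and 1 with no filter, 208 and 4 with DESeq2, 0 to 4758 and 0 to 18 on leaving out 1 library, and 66 and 2 without the control library and resveratrol library 1 together. For resveratrol against control, 0 and 0 became 1671 and 4 with no filter, 3031 and 6 with DESeq2, 0 to 7469 and 0 to 15 on leaving out 1 library, and limma-voom called 80 genes and 0 Hox genes. The cause was not tested, except that a left-out library also changes the shared spread and the genes kept. With the replicate block 0 genes were called in each comparison, with positive log2 differences in 24 of 36 Hox genes for resveratrol against obesity; the numbers share no stated animal, and this changed no call. Recomputed were 33 results. They were log2 differences of the 10 Hox genes with the smallest p per comparison, and the numbers of Hox genes with positive differences. Of 415 values, 332 stayed the same: for a gene its direction and side of the threshold, for a number its approximate size. In 83 values, all of single genes, the direction was kept and the threshold passed anew, and 0 reversed. Genes with larger p were not counted here, so this does not speak for them. Hoxa10, among these, turned with the resveratrol library left out. Plain library totals gave summed Hox levels of 1000.1 CPM in resveratrol library 1, 359 CPM in resveratrol library 2, 295 CPM in obesity library 2 and 1759 CPM in the control library, and median-ratio size factors 1705 CPM in control. Plain totals shift every log2 difference of obesity against control by -0.12. A single control library and 2 libraries per group limit every comparison, and values at 1 to 3 counts carry wide counting intervals.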
